A study of Caenorhabditis elegans with 2 samples.

Results

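The eggshell of the nematode Caenorhabditis elegans is laid down by the oocyte within minutes of sperm entry, and the genes that build and trigger it were examined here for occupancy by the zinc finger protein ZTF-18. The 9 genes are cpg-1, cpg-2, cpg-3, chs-1, cbd-1, egg-1, egg-2, egg-3 and mbk-2, out of 19973 protein-coding genes on the nuclear chromosomes. They were chosen by their known function from a list drawn up after peak signals of these data had been seen, and cpg-1 was by then known to have one of the strongest peaks. All values at these genes are therefore descriptions, and none was tested. For each gene, the peaks considered had their summit, the base of highest signal, in a stretch that starts 1000 bp before the annotated 5′ end and runs 200 bp into the gene. This stretch is called the promoter window below.

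The study mapped ZTF-18 by ChIP-seq, in which DNA bound to a protein is recovered with an antibody and sequenced. It used whole young adult hermaphrodites of strain OP496, which carries ZTF-18 with a C-terminal GFP-FLAG tag, and an antibody to GFP. Worms were collected 64 hours after starved L1 larvae were released from synchronization. There was 1 group with 2 biological replicates and no treated group, so occupancy at these genes can be compared between replicates and between genes but not between conditions. Whole animals were used, so the tissue in which a site was occupied is not given by the data, and no RNA was measured. The peaks are from 4 lists deposited on ce11. The thresholded list holds 2465 reproducible peaks and the relaxed list of both replicates together, called the pooled list, holds 30000. The authors label the pooled list as peaks and background, so its weak entries need not be sites. The relaxed lists of replicate 1 and replicate 2 hold 26104 and 27612 peaks. Peaks are described by the authors' signal and by their rank by signal, rank 1 being the strongest. Signal has a scale of its own in each list and carries no error, so the 2 replicates show the spread by rank and position. The read depth behind the lists is unknown from the files.

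As background, the eggshell is built from the outside inward. A vitelline layer already surrounds the oocyte, a chitin layer forms beneath it, and a layer of chondroitin proteoglycans is then secreted inside the chitin, before a lipid-rich permeability barrier closes off the embryo. The proteins are made in the germ line ahead of time, and fertilization releases them: surface and cortex proteins of the EGG family link sperm entry to the chitin synthase CHS-1 and to the kinase MBK-2, which starts the change from oocyte to embryo.

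ZTF-18 occupied 3 of the 9 promoters in the thresholded list, at very different strengths. The proteoglycan gene cpg-1 had the peak of rank 10, egg-1 had 2 peaks at ranks 642 and 1912, and cpg-2 had one at rank 1942. The share, 33.3%, stands beside 8.18% of all protein-coding genes (1634 of 19973) with a thresholded summit in the window. In the pooled list, which includes background, 7 of the 9 had a summit (77.8%), against 39.0% of all genes. The entries at egg-3 and egg-2 had a −log10 q of only 0.612 and 0.416. Among the 500 strongest thresholded peaks only 1 of the 9, cpg-1, had a summit, against 2.21% of all genes. No summit lay in the window of cpg-3 or of mbk-2 in any of the 4 lists. Among as many of the strongest peaks of a single replicate as the thresholded list holds, replicate 1 gave 2 of the genes, cpg-1 and egg-1, against 7.85% of all genes. Replicate 2 gave 4, with cpg-2 and chs-1 in addition, against 7.82%.

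**Figure D1:**
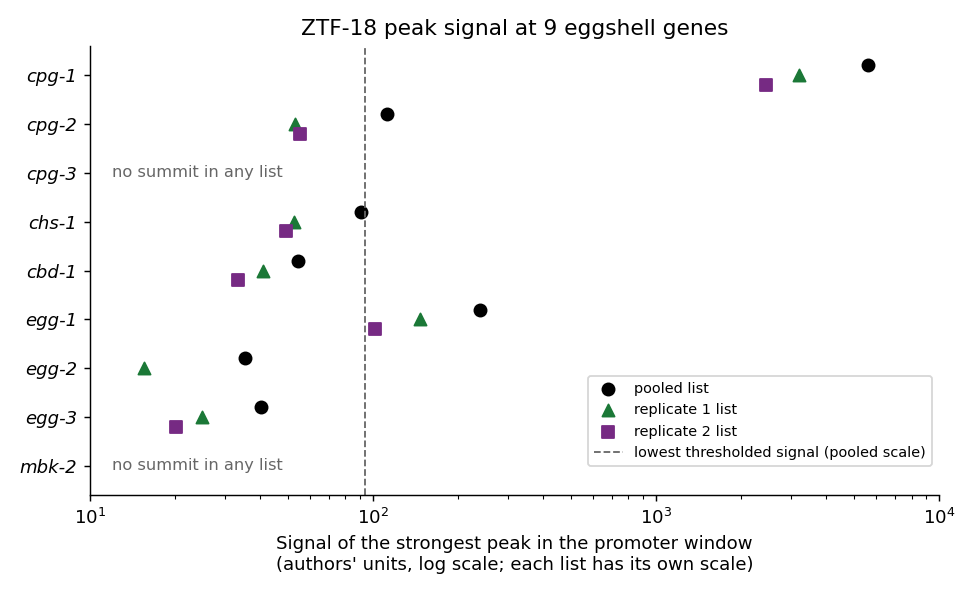
Signal of the strongest peak in the promoter window of each of the 9 genes, on a log axis in the authors' units, for the pooled list (circles), replicate 1 (triangles) and replicate 2 (squares). The dashed line marks the lowest thresholded signal, 93.6 on the pooled scale, and cpg-1 stands far to the right of every other gene in each list.

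The sequences under the summits are shown first, because the strongest eggshell peak differs from the weaker ones in the DNA at its summit. To find words that mark strong ZTF-18 sites, the 100 strongest nuclear peaks outside the windows of the 9 genes were searched for words of 8 bases on both strands. Words within 50 bp of the summit were compared with words in flanks 250 to 300 bp away. The word with the largest difference was GCGCCAGC, whose reverse complement is GCTGGCGC. It was present at 47 of these 100 summits and in 0 flanks. In the lines that follow, each stretch runs 50 bp to either side of the strongest pooled summit and reads 5′ to 3′ on the strand of the gene, from the RefSeq copy of WBcel235, the assembly also named ce11. Capitals mark every match to the 20 leading words, many of which overlap each other. The first line is cpg-1 (chrIII:4489065-4489165). The next are the peaks just above and just below it in rank, at ddp-1 (chrIII:1859701-1859801), a gene for a small mitochondrial import protein, and at pcn-1 (chrIV:4049670-4049770), the gene for the replication clamp PCNA. They are examples of strong sites, and not all strong sites hold GCGCCAGC, which was present at 47 of the 100 searched.
cpg-1: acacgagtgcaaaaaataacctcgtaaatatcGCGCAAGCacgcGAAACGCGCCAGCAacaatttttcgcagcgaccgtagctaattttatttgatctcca
ddp-1: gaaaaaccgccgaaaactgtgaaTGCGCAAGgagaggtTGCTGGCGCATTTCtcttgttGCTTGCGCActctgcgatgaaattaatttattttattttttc
pcn-1: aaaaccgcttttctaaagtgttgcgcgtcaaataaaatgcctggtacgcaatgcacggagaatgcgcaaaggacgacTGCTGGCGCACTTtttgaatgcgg

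Of the remaining eggshell genes, 5 with a weaker peak are shown the same way, to set them beside cpg-1, and the sequence at chs-1 is not shown. They are egg-1 (chrIII:5727964-5728064), cpg-2 (chrIII:7104260-7104360), cbd-1 (chrIV:11372808-11372908), egg-2 (chrIII:7060685-7060785) and egg-3 (chrII:10884552-10884652). The last line is the summit inside mbk-2 (chrIV:13031231-13031331), described further on.
egg-1: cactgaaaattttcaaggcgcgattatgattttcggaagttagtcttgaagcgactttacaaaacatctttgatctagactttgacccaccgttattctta
cpg-2: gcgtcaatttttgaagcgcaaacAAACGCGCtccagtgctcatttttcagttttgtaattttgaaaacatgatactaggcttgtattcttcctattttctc
cbd-1: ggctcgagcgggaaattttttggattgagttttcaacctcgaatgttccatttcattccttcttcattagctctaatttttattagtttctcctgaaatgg
egg-2: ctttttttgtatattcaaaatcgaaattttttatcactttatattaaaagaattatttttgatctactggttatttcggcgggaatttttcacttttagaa
egg-3: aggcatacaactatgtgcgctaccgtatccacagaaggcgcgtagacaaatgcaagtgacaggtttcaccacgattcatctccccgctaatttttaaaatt
mbk-2 internal: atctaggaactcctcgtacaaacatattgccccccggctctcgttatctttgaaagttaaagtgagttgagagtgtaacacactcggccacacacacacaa

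Of the 9 promoter windows, that of cpg-1 alone held GCGCCAGC. The word lay 241.5 bp upstream of the 5′ end by its centre, beside the pooled summit at 244 bp upstream. Across all protein-coding genes, 1.55% of windows of this length held the word. The share was 9.42% of the 1634 genes with a thresholded summit and 0.851% of the 18339 without one. Peaks from which the word was chosen lie at some of the 1634 genes, so their share is high in part by construction. At the strongest peaks the centre of the word lay a median of 9.5 bp from the summit. The 100 strongest peaks held a median of 6 of the 20 leading words, with a range of 0 to 12. The words were chosen at those peaks, so that median is high in part by construction. The cpg-1 summit, which was not used to choose them, also held 6 of the 20 words. These words overlap in 2 runs of capitals, one around GCGCCAGC and one around GCGCAAGC, so they are not 6 separate matches. The word GCGCAAGC occurred in 1.25% of promoter windows and at 2.00% of the 2449 nuclear thresholded summits.

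The weaker peaks had few or none of these words at their summits. The cpg-2 summit held 1 leading word, AAACGCGC, which cpg-1 also holds and which occurs in 3.64% of all promoter windows and at 5.51% of nuclear thresholded summits. The summits at egg-1, chs-1, cbd-1, egg-2 and egg-3 held 0 of the 20 words. The median over the 2449 nuclear thresholded summits was also 0. In the thresholded list as a whole, GCGCCAGC was common at the highest ranks and rare below them. It was present at 47 of the 94 nuclear peaks of ranks 1 to 100 (50%, exact 95% interval 39.5 to 60.5) and at 34.3% of ranks 101 to 250 (26.5 to 42.7). Most of the peaks from which the word was chosen are at ranks 1 to 100, so the share there is high by construction. Most of the 143 nuclear peaks of ranks 101 to 250 were not used to choose it. It was present at 2 of the 500 summits of ranks 501 to 1000, the range that holds the stronger egg-1 peak. Of ranks 1501 to 2000, the range of cpg-2, 0 of 500 summits had it, which allows a share of up to 0.735%. Intervals cover counting error only. The share of G and C within 50 bp of the summit ranged from 22.8% at egg-2 to 44.6% at cpg-1 and egg-3, while the median over nuclear thresholded summits was 47.5%. A match is a description of letters and does not show what ZTF-18 contacts.

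**Figure D2:**
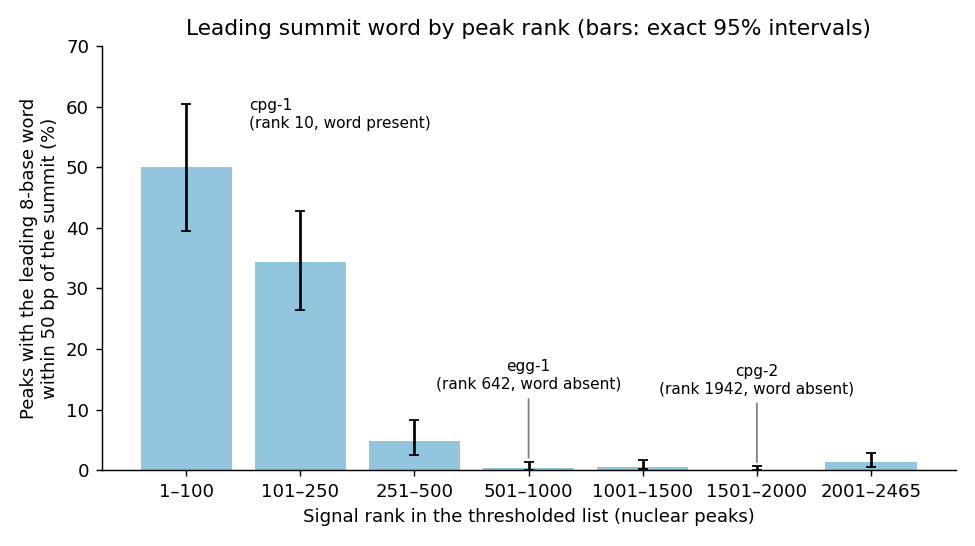
Share of nuclear thresholded peaks with GCGCCAGC or its reverse complement within 50 bp of the summit, by rank of signal, with exact 95% intervals. The share falls from 50% at ranks 1 to 100 to 4.86% at ranks 251 to 500, and the labels place cpg-1 (rank 10, word present), egg-1 (rank 642, word absent) and cpg-2 (rank 1942, word absent).

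The proteoglycan genes cpg-1, cpg-2 and cpg-3 encode chondroitin-bearing or related secreted proteins of the inner eggshell, and they covered the whole range from a very strong peak to none. At cpg-1 (WBGene00000465, chrIII:4489359-4491392, plus strand) the pooled peak spanned 4488727 to 4489571 with a signal of 5621 at rank 10. The replicates gave a signal of 3201 at rank 12 and of 2452 at rank 7. Both replicates placed the peak among their 12 strongest. The summit lay 244 bp upstream of the 5′ end in the pooled list, 238 bp upstream in replicate 1 and 243 bp upstream in replicate 2, so the replicate summits were 5 bp apart. For comparison, the nearest replicate summits at nuclear thresholded peaks lay a median of 24 bp apart (2432 peaks). The cpg-1 signal ranked 11 among the 1634 bound genes and was 34.9 times their median. No other annotated gene had this summit in its promoter window, and the nearest protein-coding gene upstream, ins-17, lay 11787 bp away on the other strand.

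At cpg-2 (WBGene00015102, chrIII:7102092-7103990, minus strand) the pooled peak had a signal of 112.6 at rank 1942, 49.9 times below that of cpg-1. Its signal was higher than that of 19.5% of bound genes. Replicate 1 had 2 summits in the window, the stronger at rank 2859 and 171 bp upstream, and replicate 2 had 1 at rank 1780 and 292 bp upstream. The pooled summit lay 320 bp upstream. The replicate summits were thus 121 bp apart, and the replicate 1 rank fell outside the 2465 strongest of that list. The coding sequences of cpg-1 and cpg-2 matched at 64.7% of 1426 aligned bases. At cpg-3 (WBGene00011063, chromosome I, 7244937 to 7246295, plus strand) the nearest thresholded summit lay 6836 bp downstream of the 5′ end, nearer to that of the spindle checkpoint gene bub-1.

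The chitin genes had summits just upstream of their 5′ ends that did not reach the thresholded list. The chitin synthase gene chs-1 (WBGene00000496, chromosome I, 7554855 to 7559916, plus strand) was the nearest of the 9 genes to the threshold from below. Its pooled peak had a signal of 90.7 at rank 2584, against a lowest thresholded signal of 93.6 at rank 2465. Its −log10 q was 2.78, and the highest value in the pooled list, also 2.78, occurred as far down as rank 3291. Its strongest summit was at rank 2882 in replicate 1 (105 bp upstream) and at rank 2122 in replicate 2 (40 bp upstream), with the pooled summit 41 bp upstream. The gene T25G3.1 lies in the same direction, 302 bp upstream of chs-1. The gene cbd-1 (WBGene00010351, chrIV:11372991-11377627, plus strand), which encodes a chitin-binding protein of the vitelline layer, had a pooled signal of 54.3 at rank 5550 and a −log10 q of 1.40. The ranks were 4265 in replicate 1 and 3935 in replicate 2. The summit lay 133 bp upstream in the pooled list, 54 bp upstream in replicate 1 and 236 bp upstream in replicate 2, a spread of 182 bp between replicates.

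The EGG genes differed among themselves, including the related pair egg-1 and egg-2. Both encode LDL-receptor repeat proteins of the oocyte surface that are needed for sperm entry. At egg-1 (WBGene00015083, chrIII:5728180-5730159, plus strand) the thresholded list had 2 peaks of 510 bp that overlap, with summits 166 bp upstream and 34 bp downstream of the 5′ end. The upstream peak had a pooled signal of 240.1 at rank 642 and was at rank 645 in replicate 1 and 725 in replicate 2. The downstream peak had a pooled signal of 113.9 at rank 1912, with ranks of 2634 and 1707. Both replicates therefore had the same order of the pair, and the upstream summits of the replicates were 23 bp apart. A fixed width of 510 bp was shared by 1433 of the 2465 thresholded peaks, so the interval does not measure the extent of the site.

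At egg-2 (WBGene00019811, chrIII:7058527-7060583, minus strand) the pooled list had 1 summit, 152 bp upstream, with a signal of 35.4 at rank 11448. This was 6.78 times below the signal of egg-1, and the −log10 q of the egg-2 entry was 0.416. Replicate 1 had a summit 21 bp upstream at rank 20865 of 26104, and replicate 2 had none in the window. The coding sequences of egg-1 and egg-2 matched at 72.5% of 1623 aligned bases. The gene egg-3 (WBGene00009701, chrII:10882408-10884441, minus strand) encodes an inactive phosphatase-like protein of the oocyte cortex. Its pooled signal was 40.4 at rank 9094 with a −log10 q of 0.612, and the summit lay 161 bp upstream. The strongest summits in the replicates had ranks of 9924 and 10166 and lay 94 and 527 bp upstream. Replicate 2 had another summit 160 bp upstream at rank 11246, next to the pooled one. In pooled signal the genes thus came in the order cpg-1, egg-1, cpg-2, chs-1, cbd-1, egg-3 and egg-2. The neighbours cpg-2 and chs-1 had close replicate ranks, 2859 and 2882 in replicate 1 and 1780 and 2122 in replicate 2. The order of egg-3 and egg-2 rests on signals of 40.4 and 35.4, far down the list.

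**Figure D3:**
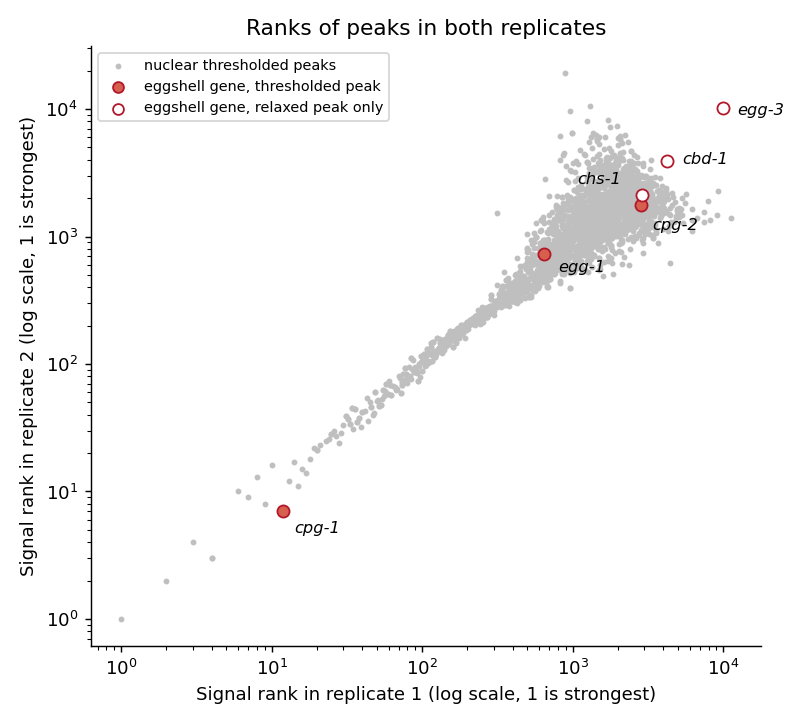
Rank by signal in replicate 1 (x axis) and replicate 2 (y axis), both on log axes, for nuclear thresholded peaks (grey) and for the strongest peak at eggshell genes with a summit in both replicates (filled where thresholded, open where relaxed only). The ranks of cpg-1 and egg-1 lie near the diagonal, cpg-2 and chs-1 lie together at the weak end of the grey cloud, and cbd-1 and egg-3 lie beyond it.

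**Figure D4:**
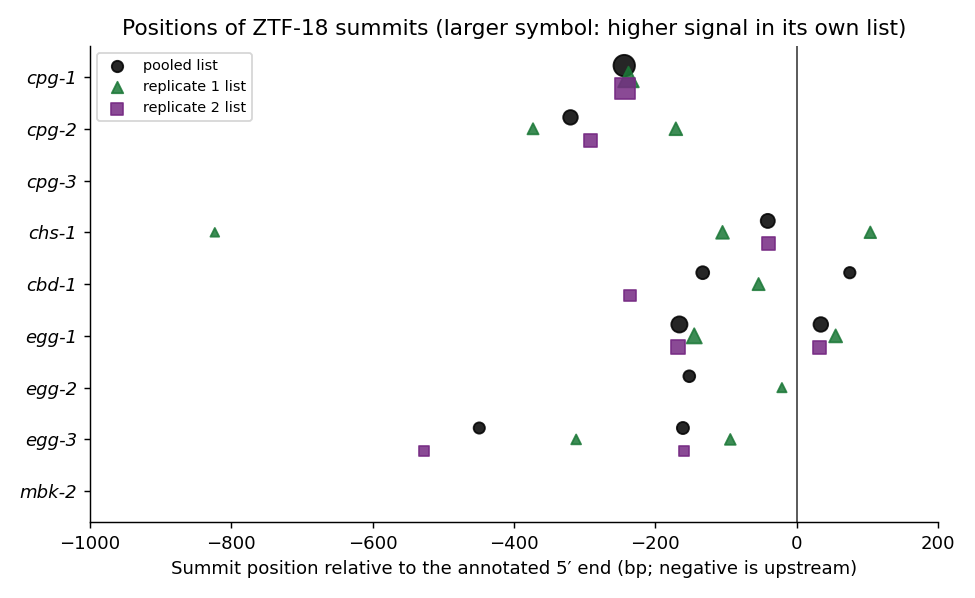
Summits in the promoter window of each gene relative to the annotated 5′ end in bp, from the pooled list (circles), replicate 1 (triangles) and replicate 2 (squares), with symbols larger where signal is higher. The 3 summits at cpg-1 nearly coincide, those at egg-1 form 2 close groups around the 5′ end, and those at egg-3 and cbd-1 are spread more widely.

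The strongest pooled summit was upstream of the 5′ end at each of the 7 genes that had one, by 41 to 320 bp. Over the strongest thresholded peak of all bound genes the median was 250 bp upstream, with quartiles at 444.8 and 134 bp upstream. The cpg-1, egg-1 and cpg-2 summits lay between those quartiles. None of the 3 genes shared a thresholded summit with the promoter window of another annotated gene. Measured to the lower coordinate of the tRNA gene, the smallest distance from a 5′ end of the 9 genes was 18473 bp, at cpg-1. The 4 thresholded peaks at these promoters included 3 with an overlapping peak among the 2465 strongest in each replicate, the exception being the cpg-2 peak. Over all thresholded peaks this share was 77.0%. The weaker egg-1 peak counts here in replicate 1 only through the overlapping stronger peak at rank 645, as its own replicate 1 summit was at rank 2634. With summits required to lie within 100 bp, 2 of the 4 peaks were matched. The thresholded list is derived from both replicates, so this overlap is partly built in.

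The kinase gene mbk-2 had its occupied site far inside the annotated gene, at a 5′ end used by 3 of its transcripts. MBK-2 is a DYRK-family kinase that marks oocyte proteins for destruction after fertilization. The gene (WBGene00003150, chrIV:13009158-13035961, plus strand) is 26804 bp long and has 14 annotated transcripts with 6 different 5′ ends. The thresholded summit lay 22123 bp downstream of the outermost 5′ end. It was 53 bp upstream of the 5′ end at 13031334, where 3 transcripts start, and 363 bp upstream of that at 13031644, where 3 others start. Its pooled signal was 95.5 at rank 2402, close to the lowest thresholded signal. The nearest replicate summits had a signal of 55.2 at rank 2701 in replicate 1, 41 bp from the pooled summit, and of 28.8 at rank 5162 in replicate 2, 93 bp away. Another replicate 2 summit, 125 bp away, had a signal of 34.2 at rank 3805. Neither replicate had the site among its 2465 strongest peaks. With every transcript 5′ end counted, 4 of the 9 genes had a thresholded summit, against 8.75% of all protein-coding genes. The pooled list held 15 summits within mbk-2 in all, of which this one alone was thresholded.

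Sites also lay at the 3′ ends of cpg-1, cpg-2 and cbd-1. A thresholded summit lay within 500 bp of the annotated 3′ end of 3 of the 9 genes, against 3.52% of all protein-coding genes, a distance chosen after the peaks had been seen. At cpg-1 there were 2, the stronger 49 bp inside the gene with a pooled signal of 224.4 at rank 705, and at ranks of 627 and 830 in the replicates. The weaker, 150 bp beyond the end, was at rank 1810. The cbd-1 peak, 25 bp inside the 3′ end, had a signal of 112.4 at rank 1946, above the 54.3 of the same gene's promoter peak. Its replicate summits lay 25 and 22 bp inside the end, at ranks of 2592 and 1677. The cpg-2 peak, 323 bp inside the end, had a signal of 134.7 at rank 1524, also above the promoter peak of that gene, and ranks of 1194 and 2099. In each case the next gene beyond (atf-7, fbxb-76 and ZK418.11) faces the eggshell gene, so that the 3′ ends of both meet there, with gaps of 43 bp at cpg-2 and 544 bp at cbd-1. Of the 9 genes 8 have a facing neighbour, so this arrangement does not set the 3 apart.

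ZTF-18 peaks were also present at most of the listed genes that act with these 9 in egg activation. Lists of related genes were drawn up from textbook functions, but with earlier results of these data known, so their counts are descriptions only. Of their 60 genes with an annotation, 14 (23.3%) had a thresholded summit, against 8.18% of all genes. Of these, 7 came from the list of egg activation and MBK-2 pathway genes, which has 9 genes. The genes egg-4 and egg-5 encode inactive phosphatases that hold MBK-2 in check with EGG-3. The egg-5 peak had a pooled signal of 847.1 at rank 230, and ranks of 247 and 211 in the replicates. Its summit lay 594 bp upstream of egg-5 but 23 bp upstream of sls-2.4, a spliced leader RNA gene. The egg-4 peak had a signal of 151.5 at rank 1268. The coding sequences of egg-4 and egg-5 matched at 99.1% of 2259 bases, but both summits lie upstream of the genes. The 300 bp next to their 5′ ends matched at 83.3% of 281 aligned bases, and both summits lie beyond that stretch. The same share was 62.8% for egg-1 and egg-2 and 71.3% for cpg-1 and cpg-2. Gaps are left out of these shares, and no unrelated pair was aligned for comparison. Whether reads fit both places at the summits was not tested.

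The genes oma-1 and oma-2 encode zinc finger RNA-binding proteins that MBK-2 marks for destruction, and their peaks had signals of 154.1 at rank 1240 and 134.5 at rank 1528. Their summits lay 267 and 420 bp upstream. The pos-1 peak had a signal of 219.1 at rank 731 and was shared with the V-ATPase gene vha-18. The genes mei-1 and mei-2 encode the subunits of the meiotic katanin, and their peaks, at ranks 2354 and 2148, were shared with the nucleoporin gene npp-2 and with syp-6. In replicate 2 they were at ranks 4648 and 2596, outside its 2465 strongest. The summits of pos-1, mei-1, mei-2 and egg-5 can thus not be assigned to the listed gene alone. The sperm-supplied gene spe-11 had no pooled summit. The gene cdk-1 had one at rank 4761, but ranks of 2372 and 3208 in the replicates.

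In the other lists the counts were low, and with so few genes several shares are near the 8.18% of all genes. In chitin precursor synthesis 1 of 4 genes had a thresholded summit, gna-1 at rank 1816, whose summit B0024.11 and B0024.13 share. In chondroitin synthesis 2 of 9 (22.2%) did, both with a shared summit: mig-22 at rank 962 with mtss-1, and sqv-3 at rank 1208 with vha-1. Among permeability barrier and lipid genes 1 of 9 (11.1%) did, perm-1 at rank 1373. Of 8 other cpg genes 0 had one, of 3 further vitelline layer and scaffold genes 0 did, and 4 listed cpg symbols had no entry in the annotation under that name. Of 7 yolk protein and receptor genes 1 (14.3%) had one, the receptor gene rme-2, 93 bp upstream at rank 1335. Of the 6 vitellogenin genes, vit-2, vit-5 and vit-6 had a pooled summit but 0 had a thresholded one. Of 8 oocyte RNA regulators 1 (12.5%), spn-4 at rank 2036, had one, shared with spe-39. The spn-4 ranks in the replicates were 1663 and 4150. Of 3 paralogs that act outside the eggshell, mbk-1 had a summit at rank 2449, near the bottom of the list, and ranks of 2972 and 2911 in the replicates. The chitin synthase of the pharynx, chs-2, had no pooled summit.

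**Figure D5:**
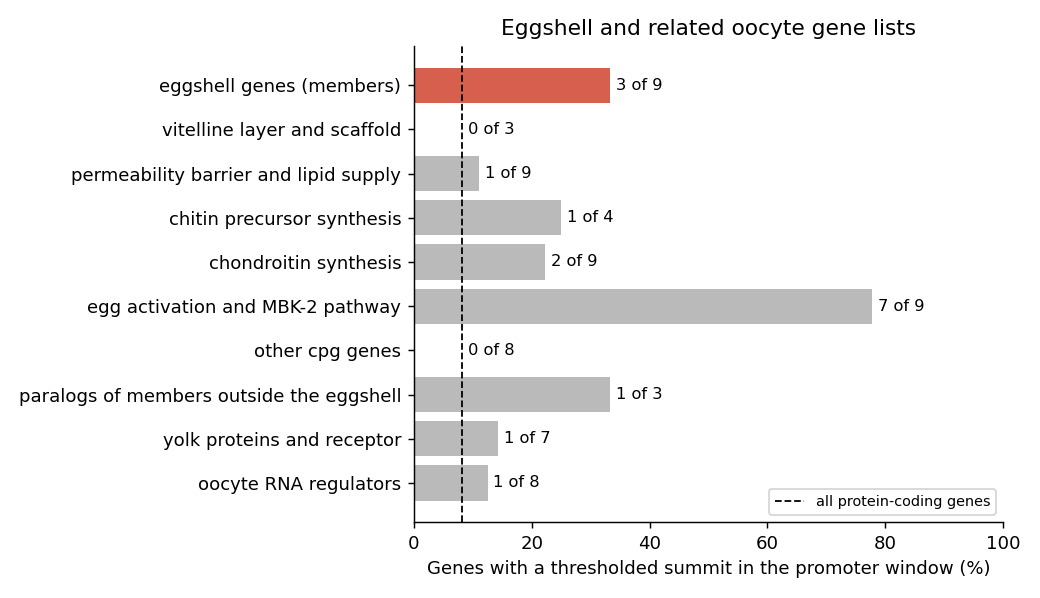
Share of genes in each list with a thresholded summit in the promoter window, in percent, with counts beside the bars, for the 9 eggshell genes (red) and the related lists (grey). The dashed line is the share over all protein-coding genes, 8.18%, and the longest bar is that of egg activation and the MBK-2 pathway, at 7 of 9 genes.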

How the data were processed

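Peak calls in narrowPeak format were deposited by the authors, and those on ce11 were used; the ce10 lists were not analysed here. The deposited description texts call the relaxed lists input to a reproducibility comparison (irreproducible discovery rate) made with a control, and record the thresholded list as derived from them. No aligner, peak caller or cutoff is stated there. The signal and the −log10 q of each peak are the authors' deposited values, and the scale of the signal is not stated. The thresholded peaks were the 2465 strongest of the pooled list.

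Gene models were of annotation release 115 on WBcel235, and all peaks fell within its chromosome lengths. Trans-splicing can place an annotated 5′ end downstream of the true start. The members and lists were chosen with earlier results of these data known, and no test was made. Named genes are all members, genes sharing their summits, bound genes of the related lists and neighbours in rank; cdk-1, spe-11, chs-2, the vitellogenins, ins-17 and T25G3.1 were named in addition, as were genes nearest to the 3′ ends. The 20 leading words and the 3′ distance were chosen after seeing the data. Window counts and word search were checked on planted data. Coding sequences were aligned globally. Analyses used Python 3.11.15, numpy 2.4.6, pandas 2.3.3, scipy 1.17.1 and Biopython 1.88.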

Additional observations from a re-analysis of the deposited data

How the results depend on the processing

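The count of 3 genes with a thresholded summit (cpg-1, cpg-2 and egg-1) was the same, with the same genes, for a window of 500 bp upstream (6.57% of all genes), of 2000 bp upstream (10.6%) or with no downstream part (7.75%). It was also the same with each summit given to its nearest 5′ end only (6.17%) and with peak intervals in place of summits (9.03%). The count was 4 with every transcript 5′ end (mbk-2 in addition, 8.75%) and 2 among the 1232 strongest thresholded peaks (cpg-1 and egg-1, 4.28%). It was 1 among the 500 strongest peaks (cpg-1, against 2.21% of all genes) and 7 in the relaxed pooled list (39.0%). With the 2465 strongest peaks of a single replicate in place of the thresholded list, it was 4 in replicate 2 (7.82%) and 2 in replicate 1 (7.85%). The thresholding itself was not redone without a replicate. Of the 4 thresholded peaks at these promoters, 3 were overlapped by strong peaks of both replicates when 50% of both lengths had to overlap, 2 with summits within 100 bp, and 1 against the 500 strongest peaks of each replicate. The word GCGCCAGC was present at 37.0% of the strongest peaks within 25 bp of the summit and at 48.0% within 100 bp, against 47.0% within 50 bp. Of 26 ranks and positions in single replicates, 13 differed from the pooled value by more than 1 SD of the replicates or had no second replicate to give one. The ce10 count was not run, since no ce10 annotation was used here. Without read counts, the absence of a peak at cpg-3 or at the outermost 5′ end of mbk-2 means that none was listed, not that occupancy was 0.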
